A study of Mus musculus with 96 samples.

Results

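The genes that carry TGF-beta signalling were followed in sorted microglia, the macrophages that live in brain tissue, across all 16 groups of a study of surgery and age. They are 10 genes of 54532 in the deposited tables: the ligand genes Tgfb1 and Tgfb2, Lrrc33 (listed under its current symbol Nrros), the receptor genes Tgfbr1 and Tgfbr2, the signal-carrying Smad2, Smad3 and Smad4, and the inhibitor genes Smad7 and Ski. The rows were taken by Ensembl identifier, with no use of their values, and each of the 10 was found once. Wild-type mice of 3 to 5 months (young) or 20 to 22 months (old) had abdominal surgery or served as controls, and microglia were collected at 6 h or 48 h. How control animals were handled is not given. From each of 48 animals, cells positive for Fcrls and CD11b and negative for Ly6C were sorted from the hemisphere and from the hippocampus, 1000 cells a library, which gave 96 libraries. Each young group had 4 animals, the old controls 8 at each time, and the old surgery groups 7 animals at 6 h and 9 at 48 h.

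TGF-beta is made as a latent complex that is held on a carrier protein until integrins release the active ligand. The active ligand brings the type II and type I receptors together, the type I receptor phosphorylates SMAD2 and SMAD3, and these enter the nucleus with SMAD4 to switch genes on or off. SMAD7 blocks the type I receptor and SKI represses SMAD complexes on DNA. In the brain, microglia need this signal to keep the set of genes that marks them in the resting state.

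Library totals ran from 1874168 to 3778939 estimated counts, with a median of 2703893, and 15 gene models, nearly all of them predicted genes such as Gm26870 and Gm10800, held 53.05% to 81.19% of each total. In 6 libraries, all of 6 h, the low values did not run 1, 2, 3 (called stepped below): young control hippocampus replicates 1 and 4, old surgery hippocampus replicates 5 and 6, old surgery hemisphere replicate 6 and old control hemisphere replicate 7. The 8 microglial marker genes had a median level of 579 CPM, that is, counts scaled to a library of 1000000. The medians of 12 lists of other cell types ran from 0.0747 CPM (erythrocytes) to 8.48 CPM (oligodendrocytes), and Lyve1, Gfap, Slc17a7 and Cldn5 were at 0 in most libraries. Single genes of these lists stood higher, with Trf at 277 CPM, Stab1 at 190 CPM, Csf3r at 136 CPM and Ttr, a choroid plexus marker, at 125 CPM. Some sums varied widely between libraries. That of 5 choroid plexus markers ran from 0 to 1428.3 CPM and that of 6 B cell markers from 40.6 to 640 CPM. In sorted samples, fewer cells of a type and less RNA per cell cannot be told apart.

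The ligand genes stood far apart in level. Tgfb1 lies on mm10 at chr7:25687002-25705077 on the plus strand and Tgfb2 at chr1:186622792-186705989 on the minus strand. Tgfb1 was counted in every library, with 8 to 127 counts and a median of 34.5. Tgfb2 had 0 counts in 30 libraries and 1 or 2 counts in 38 more. In the libraries at 0, a count of 0 allows a level of up to 0.91 to 1.59 CPM (3 counts, counting error only). The 13 libraries with at least 9 counts held 68.5% of its 403 counts. Per kilobase of exon, which allows genes to be compared, Tgfb1 averaged 2.75 CPM and Tgfb2 0.245 CPM.

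Their promoters are shown because the ligand genes differ so much in level and because Tgfb2 was the member with a called difference. Each run is the 250 bases before the RefSeq start of the gene (build GRCm38.p6), 5′ to 3′ on the strand of the gene. Capitals mark matches on either strand to the letters TATAAA, a core promoter element, and to GGGCGG, known as a GC box.
Tgfb1, chr7:25686752-25687001, plus strand: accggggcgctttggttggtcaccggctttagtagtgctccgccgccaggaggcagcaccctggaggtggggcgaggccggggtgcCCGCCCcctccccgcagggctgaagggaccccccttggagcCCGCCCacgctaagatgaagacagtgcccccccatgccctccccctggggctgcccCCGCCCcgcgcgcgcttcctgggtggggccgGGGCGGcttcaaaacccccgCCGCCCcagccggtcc
Tgfb2, chr1:186705990-186706239, minus strand: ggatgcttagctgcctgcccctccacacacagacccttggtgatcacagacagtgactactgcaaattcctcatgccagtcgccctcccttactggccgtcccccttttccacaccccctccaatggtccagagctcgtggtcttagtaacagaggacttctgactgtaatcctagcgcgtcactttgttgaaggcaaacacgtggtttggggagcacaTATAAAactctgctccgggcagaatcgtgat
The Tgfb1 window was 75.2% G and C, with 21 CpG pairs, 5 GC boxes and no TATAAA. The Tgfb2 window was 53.6% G and C, with 8 CpG pairs, 1 TATAAA that begins 31 bases before the start, and no GC box. No matches overlapped. Of 27025 promoters of the same length, 13% held TATAAA and 32.9% held GGGCGG. A match of letters is not a measured binding site.

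By level per kilobase, the receptor gene Tgfbr1 came first at 23.1 CPM. Nrros, whose protein holds latent TGF-beta on the surface of microglia, averaged 12.7, and Tgfbr2 12.5. Ski averaged 9.73, Smad3 4.42, Tgfb1 2.75, Smad7 2.53, Smad4 1.64, Smad2 1.09 and Tgfb2 0.245. Among 21808 protein-coding genes with a count, Tgfbr1 lay at percentile 98.6 of this measure, Smad3 at 90.5, Smad2 at 65.7 and Tgfb2 at 42.4. Neighbours that did not separate were Nrros and Tgfbr2 (Nrros was the higher in 40 of 96 libraries), Tgfb1 and Smad7 (53 of 96) and Smad4 and Smad2 (63 of 96). Tgfbr1 exceeded Nrros in 93 libraries, and Ski exceeded Smad3 in all 96.

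**Figure D1:**
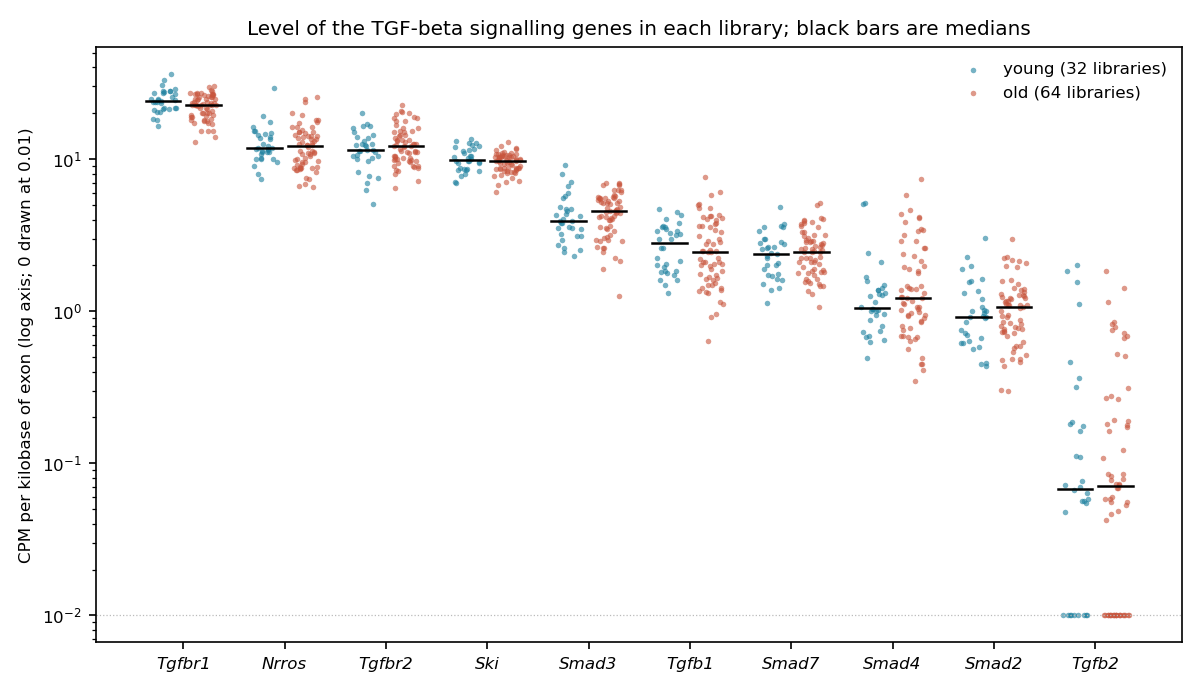
Level of each gene in every library, as CPM per kilobase of exon on a log axis, for 32 young (blue) and 64 old (red) libraries, with black bars at the medians. Tgfbr1 is highest in both ages, while Tgfb2 spreads from 0 (drawn at 0.01) to 2.0.

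The spread between animals of a group differed between the genes. Ski and Tgfbr1 were the steadiest, with a mean coefficient of variation within groups of 14% and 15.6%. It was 24.8% for Tgfbr2, 25.0% for Smad7, 25.6% for Smad3, 27.2% for Nrros, 41.3% for Tgfb1, 45.8% for Smad2 and 64.1% for Smad4. For Tgfb2 it was 129%. Median counts per library were 34.5 for Tgfb1, 30 for Smad7, 22 for Smad2 and 11.5 for Smad4. Group means of Tgfbr1 differed by at most 1.37 times and those of Ski by at most 1.42 times. Those of Smad3 differed by at most 2.49 times, from 15.4 to 38.3 CPM.

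Surgery was compared with control in young and old animals, in each region and at each time, to see whether peripheral surgery alters this pathway in microglia. None of the genes was called in any of the 8 comparisons at a Benjamini-Hochberg adjusted p (BH) under 0.05 in edgeR. The share of all tested genes called at 6 h was 0.0627% (young) and 0.337% (old) for the hemisphere. For the hippocampus it was 0.0365% (young) and 0.0876% (old), and at 48 h it was 0% in all 4 comparisons. At an unadjusted p under 0.05, 7 of 76 tests of these genes passed (9.21%), beside 6.04% of all tests. DESeq2 called 1 (Smad3, below). Tgfb2 was under the count filter at 6 h in hemisphere and at 48 h in hippocampus and was not tested there.

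Neither receptor gene was called, and Tgfbr1 moved little. Tgfbr1 (chr4:47353222-47414931, plus strand), which encodes the type I receptor kinase, had log2 fold changes from -0.02 to 0.24 over the 8 comparisons. In old animals its 95% intervals stayed between -0.30 and 0.42. In old hemisphere at 6 h, for example, controls ran from 91.7 to 168 CPM with a median of 127, and surgery animals from 99.2 to 171 CPM with a median of 135. Tgfbr2 (chr9:116084293-116175360, minus strand), the type II receptor that binds the ligand, had log2 fold changes from -0.44 to 0.00, with no positive value. Its 95% intervals reached from -0.92 to 0.65. The lowest value was in young hemisphere at 6 h, where controls averaged 126 ± 28.7 CPM (SD, n = 4) and surgery animals 93.2 ± 17.5 CPM (n = 4), with a log2 fold change of -0.44 ± 0.23 SE (BH 1.0). There 3 surgery animals lay below every control, 1 of them far lower than the rest at 67.0 CPM, and the fourth lay just inside the control range.

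Smad3 encodes a receptor-regulated SMAD and lies at chr9:63646767-63757994 on the minus strand. In old hippocampus at 6 h, controls ran from 14.5 to 34.9 CPM with a median of 25.1, and surgery animals from 11.9 to 19.6 CPM with a median of 16.1. The surgery values lay at the low end of the control range, and 3 of 7 were below every control. The means were 25.4 ± 6.5 (SD, n = 8) and 15.4 ± 2.87 CPM (n = 7), a log2 fold change of -0.71 ± 0.19 SE (BH 0.179), which was not called in edgeR. DESeq2 called it (-0.71, BH 0.0421). Without the stepped libraries the value was -0.75 (BH 0.247). Marker sums of other cells differed between the same groups. The summed level of 9 markers of border-associated macrophages, led by Stab1, ran from 123 to 278 CPM in controls and 229 to 417 CPM after surgery. That of 7 astrocyte markers, led by Slc1a3, ran from 32.8 to 87 and from 74.4 to 153 CPM. Stab1 and Slc1a3 made up most of these sums, so a shift in either sum may be that of its leading gene alone. The sum of 8 neutrophil markers, 6 of them at 0 in most libraries and led by Csf3r, was 122 to 194 CPM in controls and 53.4 to 129 CPM after surgery. That of 6 B cell markers, led by Ighm, was 92.3 to 126 CPM and 40.6 to 99.5 CPM. Oligodendrocyte markers had median sums of 324 CPM in controls and 228 CPM after surgery.

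In young hemisphere at 6 h, Smad3 read 26.7, 36.6, 39.1 and 50.7 CPM in controls and 16.3, 19.4, 19.5 and 33.1 CPM after surgery. Here 3 surgery animals were below every control and the fourth was inside the control range (-0.80 ± 0.32 SE, BH 1.0). The sum for border-associated macrophages was 153 to 215 CPM in these controls and 221 to 367 CPM after surgery, and that for astrocytes 29.9 to 45.3 and 46 to 93.4 CPM, with no overlap in either. The medians of both sums were higher after surgery in all 4 comparisons at 6 h, those of border-associated macrophages at 212 and 352 CPM in young hippocampus and 157 and 235 CPM in old hemisphere. These sums too rest mostly on Stab1 and Slc1a3. Lyve1 and Folr2 of the macrophage list and Gfap of the astrocyte list were at 0 in most libraries. The B cell sum had lower medians after surgery in all 4 comparisons at 6 h, among them 122 and 73.6 CPM in young hemisphere. The part of these markers in the results at 6 h was not tested. In the other 6 surgery comparisons the log2 fold changes of Smad3 ran from -0.30 to 0.14. In old hemisphere at 6 h the value was -0.01, with an interval from -0.50 to 0.47. At 48 h the interval was -0.47 to 0.39 in old hemisphere and -0.37 to 0.29 in old hippocampus, so a change as large as the -0.71 of old hippocampus at 6 h lies outside both.

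Smad2 (chr18:76241580-76310963, plus strand), the other receptor-regulated SMAD, and Smad4 (chr18:73639009-73703780, minus strand), the partner common to both, were not called either. Smad2 had values of either sign, from -0.75 in young hemisphere at 6 h to 0.73 in young hippocampus at 48 h. In the latter, controls read 5.42, 5.85, 7.97 and 11.9 CPM and surgery animals 8.78, 10.5, 14.3 and 16.5 CPM, groups that overlap. Smad4 ran from -0.65 to 0.35. Its interval reached down to -1.77 in young hemisphere at 48 h and up to 1.80 in young hemisphere at 6 h. In several groups 1 library stood far above the others, such as 1 old control hemisphere library, a stepped one, at 27.3 CPM where the other 7 read 1.83 to 5.10 CPM.

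Smad7, which is itself switched on by TGF-beta and feeds back on the receptor, lies at chr18:75367529-75395935 on the plus strand. In old hemisphere at 48 h, controls ran from 10 to 23.2 CPM with a median of 16.7, and surgery animals from 5.88 to 16.8 CPM with a median of 11. In the hippocampus of the same animals, controls ran from 10.2 to 22.4 CPM with a median of 14.6, and surgery animals from 6.64 to 13.6 CPM with a median of 11.8. In both regions the surgery animals lay lower, 3 of 9 and 4 of 9 below every control, while the groups overlapped. The log2 fold changes were -0.58 ± 0.19 SE (BH 0.76) and -0.57 ± 0.19 SE (BH 1.0), and neither was called. Old animals were also sorted after the last young ones, so values are given for those sorted alongside (3 surgery and 4 control old animals at each time). There the values were -0.37 and -0.44. Young animals at 48 h gave -0.06 in hemisphere and -0.18 in hippocampus, and the 4 comparisons at 6 h gave -0.19 to 0.17.

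Of the ligand genes, Tgfb1 had its largest value in old hemisphere at 6 h. Controls there ran from 3.21 to 30.8 CPM with a median of 14.3, and surgery animals from 5.75 to 12.3 CPM with a median of 8.41 (-0.71 ± 0.32 SE, BH 0.575). The surgery animals lay inside the range of the controls. In the hippocampus of these animals the value had the other sign, 0.60 ± 0.35 SE (BH 0.686), with 1 surgery animal at 38.4 CPM. Tgfb2 in hippocampus at 6 h read 0.647, 6.45, 9.04 and 10.7 CPM in young controls and 0.275, 0.367, 0.415 and 1.01 CPM after surgery (-3.70 ± 1.12 SE, BH 0.383). In old animals it ran from 0 to 0.401 CPM in controls and from 0 to 8.17 CPM after surgery, with medians of 0.153 and 0.42 CPM (3.25 ± 1.02 SE, BH 0.321). Of the young control libraries, those at 6.45 and 10.7 CPM are stepped, and the old value rests mostly on 1 library. Tgfb2 passed the count filter there only through the young controls at 6.45, 9.04 and 10.7 CPM and the old surgery library at 8.17 CPM. Both tests depend on these high libraries.

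Nrros (chr16:32142785-32165594, minus strand) and Ski (chr4:155154075-155222592, minus strand) were not called either. Nrros had log2 fold changes from -0.31 to 0.24, with 95% intervals that reached from -0.67 to 0.89. Ski had log2 fold changes from -0.19 to 0.29. In old animals the intervals of Ski stayed between -0.38 and 0.52.

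**Figure D2:**
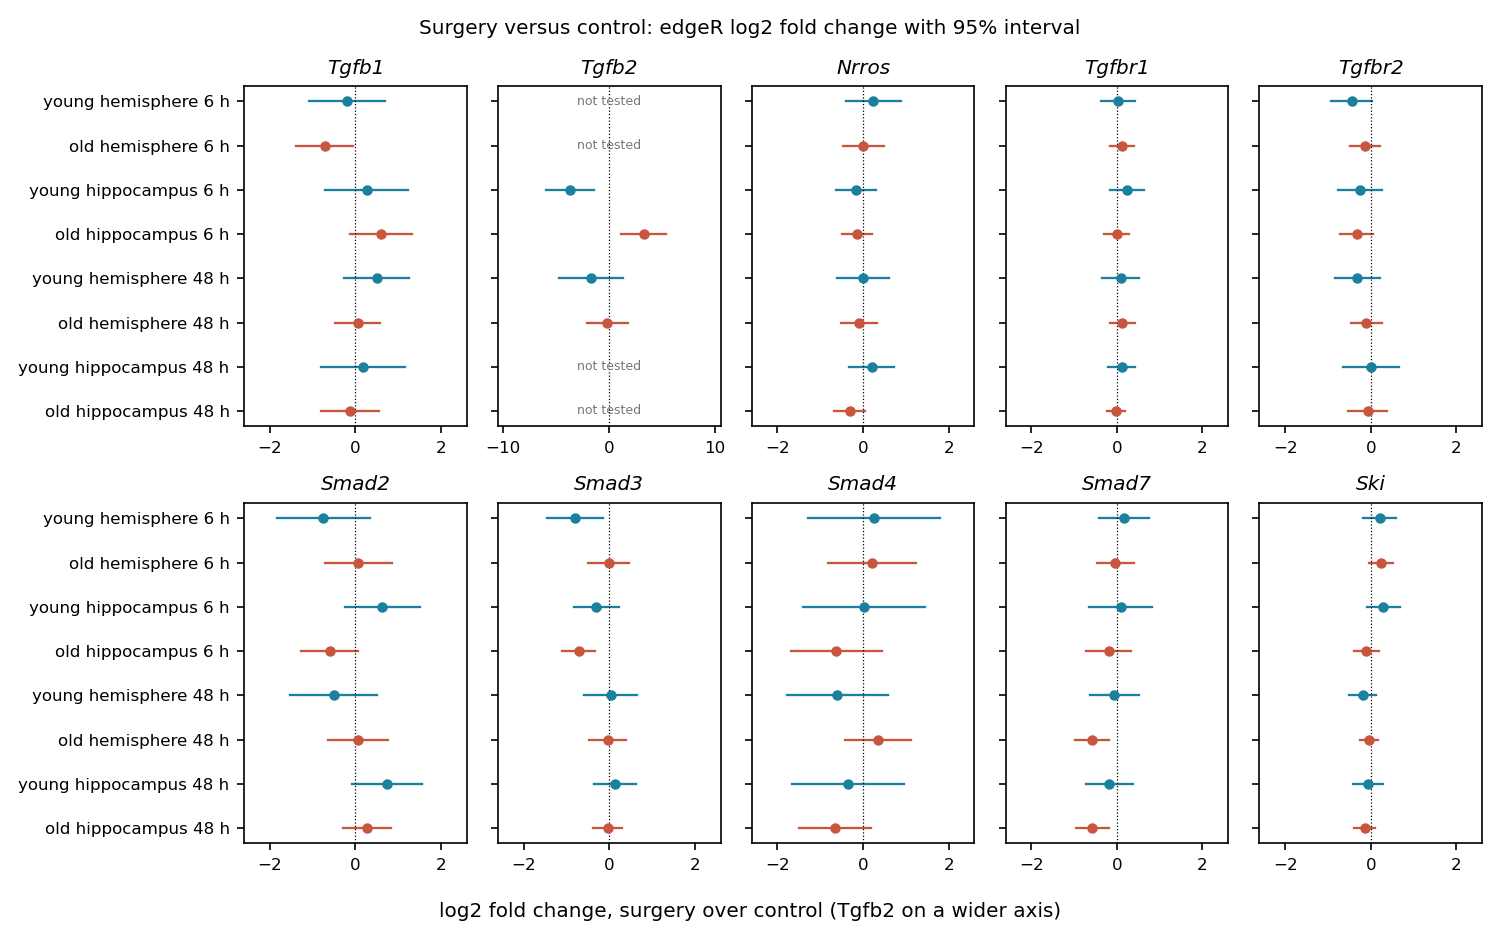
Log2 fold change of surgery over control with its 95% interval from edgeR, in young (blue) and old (red) animals, for each region and time. The ones for Tgfbr1 and Ski are short, and 7 intervals exclude 0: Smad3 in young hemisphere (-0.80) and old hippocampus (-0.71) at 6 h, Tgfb1 in old hemisphere at 6 h (-0.71), Tgfb2 in young (-3.70) and old (3.25) hippocampus at 6 h, and Smad7 in old animals at 48 h (-0.58 and -0.57).

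Old animals were compared with young ones within each treatment, region and time, to ask how age alters the pathway. Tgfb2 was the 1 gene of the 10 called, in control hippocampus at 6 h, and no other of the 76 tests was called. The age and surgery comparisons share their libraries. The share of all genes called was 0.0784% (controls) and 0.00784% (surgery) in hemisphere at 6 h, 0.0584% and 0% in hippocampus at 6 h, 0.0898% and 0.114% in hemisphere at 48 h, and 0.0834% in both hippocampus comparisons at 48 h. At an unadjusted p under 0.05, 7 of 76 tests of these genes passed (9.21%), beside 7.47% of all tests.

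In that comparison the 8 old controls ran from 0 to 0.401 CPM of Tgfb2, 4 of them at 0, and the 4 young controls, given above, from 0.647 to 10.7 CPM. The ranges did not overlap, and the share of all genes with ranges apart was not computed. The means were 0.178 ± 0.193 (SD, n = 8) and 6.70 ± 4.39 CPM (SD, n = 4), a log2 fold change of -5.23 ± 1.00 SE (BH 0.0387). The old values were 0 or 1 count a library, while 3 young libraries had 58, 32 and 20 counts and the first and second of these are stepped, so their values may be rescaled or estimated rather than numbers of reads. In hippocampus at 6 h, only those 3 young libraries and old surgery replicate 3 (27 counts) had at least 9 counts of Tgfb2. It passed the count filter only through them, so it was tested because of the group where it was high. Without the stepped libraries the value was -4.73 (BH 0.357), and among old animals sorted alongside the young ones it was -4.58 (BH 0.271). The call was lost when any 1 of the 8 old libraries or young replicate 1, 2 or 4 was left out (BH 0.0506 to 0.165), and kept without young replicate 3, the low one. The summed level of 7 astrocyte markers was 79.8, 48.4 and 37.5 CPM in young replicates 1, 4 and 2, inside the range of 23.8 to 153 CPM over all libraries, with Gfap at 0 in most libraries. Replicate 1, the highest in Tgfb2, was 2nd of 96 libraries in pericyte and smooth muscle markers (4.23 CPM), 95th in microglial markers (3469.5 CPM) and 96th in oligodendrocyte markers (159 CPM). The part of such markers in the difference was not tested.

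In the other groups Tgfb2 had no such order. In hemisphere at 48 h, young controls read 0, 0, 0.338 and 11.6 CPM and old controls 0 to 6.65 CPM, with a log2 fold change of -0.40 ± 1.13 SE (BH 0.976). After surgery in hippocampus at 6 h the value was 1.72 ± 1.09 SE (BH 0.769).

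Smad3 had age values of either sign, 3 positive and 5 negative over the 8 comparisons, none of them called. In hippocampus after surgery at 6 h, old animals averaged 15.4 CPM and young ones 16.1 CPM. The means of control hemisphere at 48 h were 25.8 CPM (old) and 26.3 CPM (young). The 3 comparisons with an unadjusted p under 0.05 follow. In control hemisphere at 6 h, old animals ran from 14.6 to 31.7 CPM with a median of 18.9, and the young animals read 26.7 to 50.7 CPM as given above. Here 6 of 8 old animals were below every young one (-0.84 ± 0.27 SE, BH 0.411). In control hippocampus at 48 h, the young animals read 14.5, 19.2, 21.7 and 24.1 CPM and the old ran from 24.5 to 37.7 CPM with a median of 32.9. All 8 old animals were above every young one (0.66 ± 0.21 SE, BH 0.356), the nearest values being 24.1 and 24.5 CPM. The share of all genes with ranges apart in this comparison was not computed. The sum of 5 choroid plexus markers ran from 322 to 1428.3 CPM in young controls and 0.4 to 518 CPM in old ones. The microglial sum had medians of 6282.8 CPM (young) and 8370.1 CPM (old), with overlapping ranges. The part of these markers in the difference was not tested. After surgery in hippocampus at 48 h, young animals read 15.0, 21.1, 23.8 and 25.8 CPM and old ones 16.4 to 38.4 CPM, with 6 of 9 above every young one (0.49 ± 0.20 SE, BH 0.407). Among the animals sorted alongside the young ones the same 3 values were -0.75, 0.67 and 0.79.

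**Figure D3:**
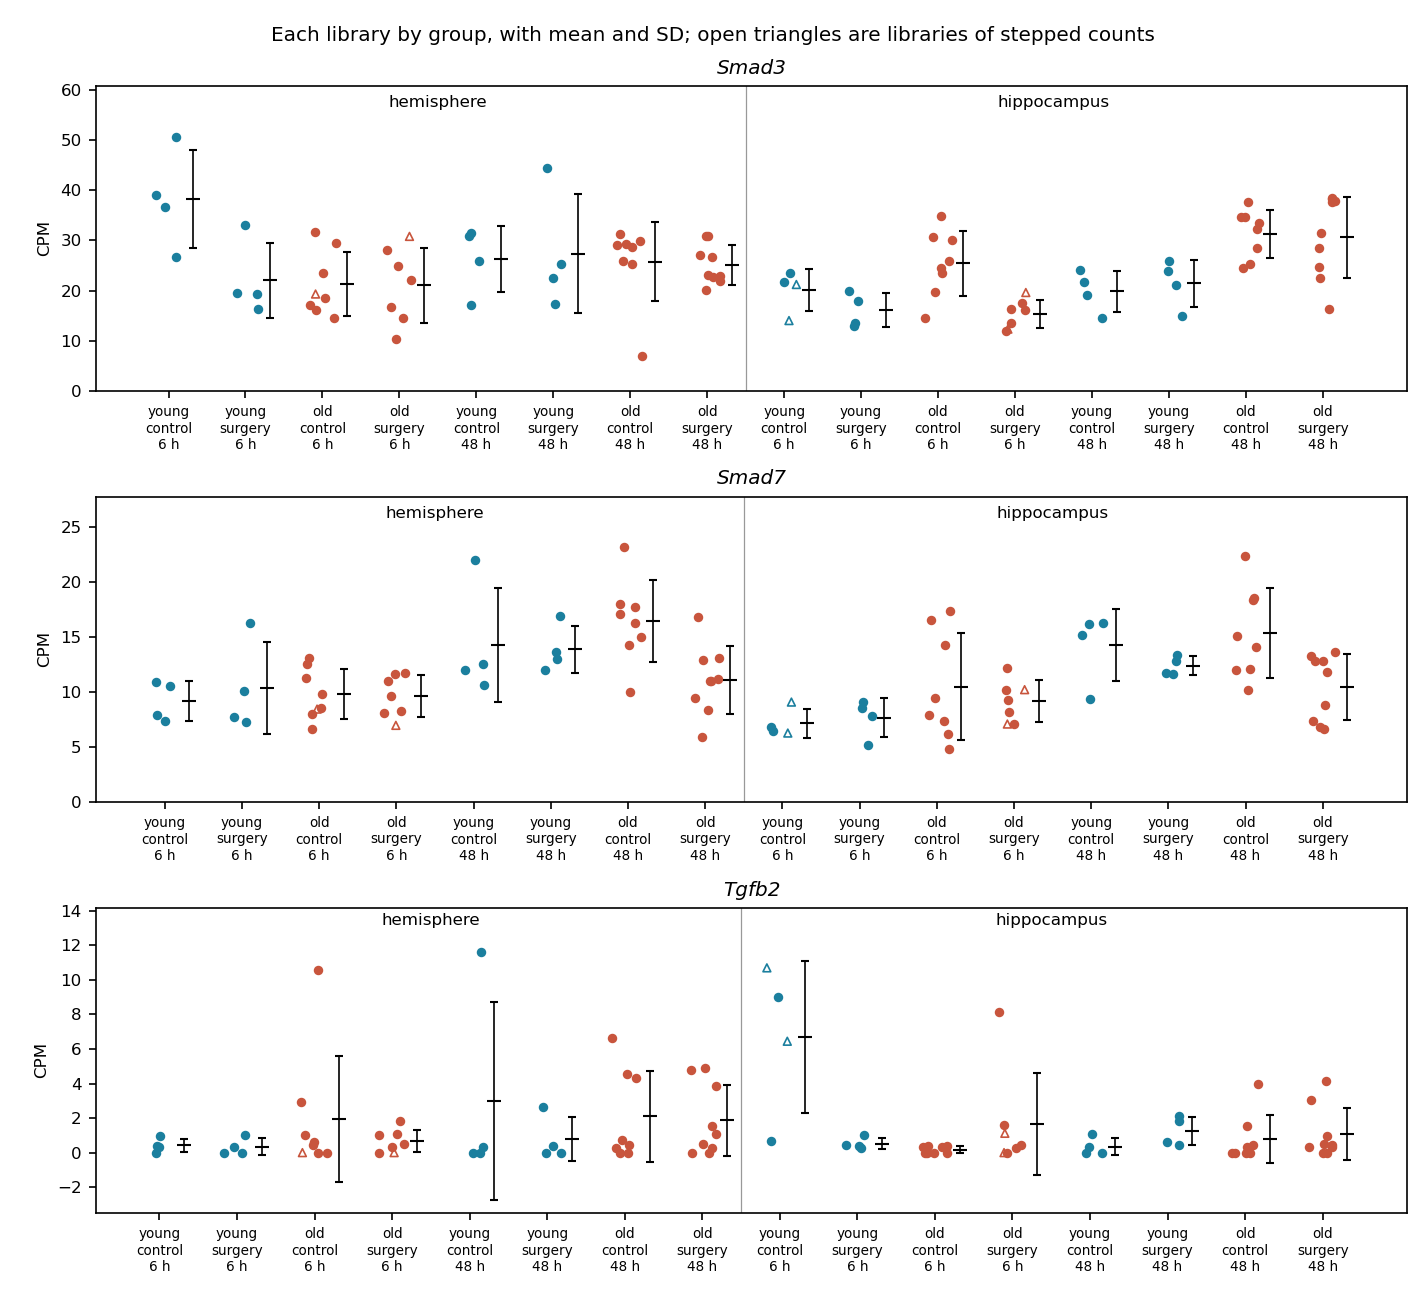
CPM of Smad3, Smad7 and Tgfb2 in each library of the 16 groups (hemisphere left, hippocampus right; blue young, red old), with mean and SD at the right of each group and open triangles for stepped libraries. Smad3 of control hippocampus at 48 h reaches 24.1 CPM in young animals and starts at 24.5 CPM in old ones, a difference that was not called. Of 4 young control hippocampus libraries at 6 h, 3 exceed 6 CPM of Tgfb2, 2 of them stepped.

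Averaged over the 4 treatment and time groups of a region, none of the genes was called, beside 1.66% of all genes in hemisphere and 0.965% in hippocampus. At an unadjusted p under 0.05, 4 of 20 tests passed (20%), beside 10.4% of all tests. Smad3 averaged 19.4 ± 4.23 CPM in 16 young and 26.2 ± 8.52 CPM in 32 old hippocampus libraries (0.36 ± 0.11 SE, BH 0.0985, DESeq2 BH 0.0443), and 28.5 ± 10.3 and 23.4 ± 6.51 CPM in hemisphere (-0.26 ± 0.14 SE, BH 0.532). Tgfbr1 averaged 164 ± 29.4 CPM in young and 139 ± 25.3 CPM in old hemisphere (-0.24 ± 0.09 SE, BH 0.21), and 157 ± 27.7 and 153 ± 26.2 CPM in hippocampus (-0.04 ± 0.07 SE, BH 0.888). Tgfbr2 had medians of 86.2 CPM in young and 95.5 CPM in old hippocampus (0.31 ± 0.13 SE, BH 0.348), a value that was 0.19 without the stepped libraries. Smad4 averaged 4.07 ± 1.52 CPM in young and 6.71 ± 5.59 CPM in old hemisphere (0.76 ± 0.29 SE, BH 0.26), with 1 old library of stepped counts at 27.3 CPM. Without the stepped libraries it was 0.57. Tgfb1, Smad2, Smad7, Nrros and Ski lay between -0.23 and 0.16 in both regions. Tgfb2 was 0.99 ± 0.71 SE in hemisphere (BH 0.692) and -0.61 ± 0.62 SE in hippocampus (BH 0.791).

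**Figure D4:**
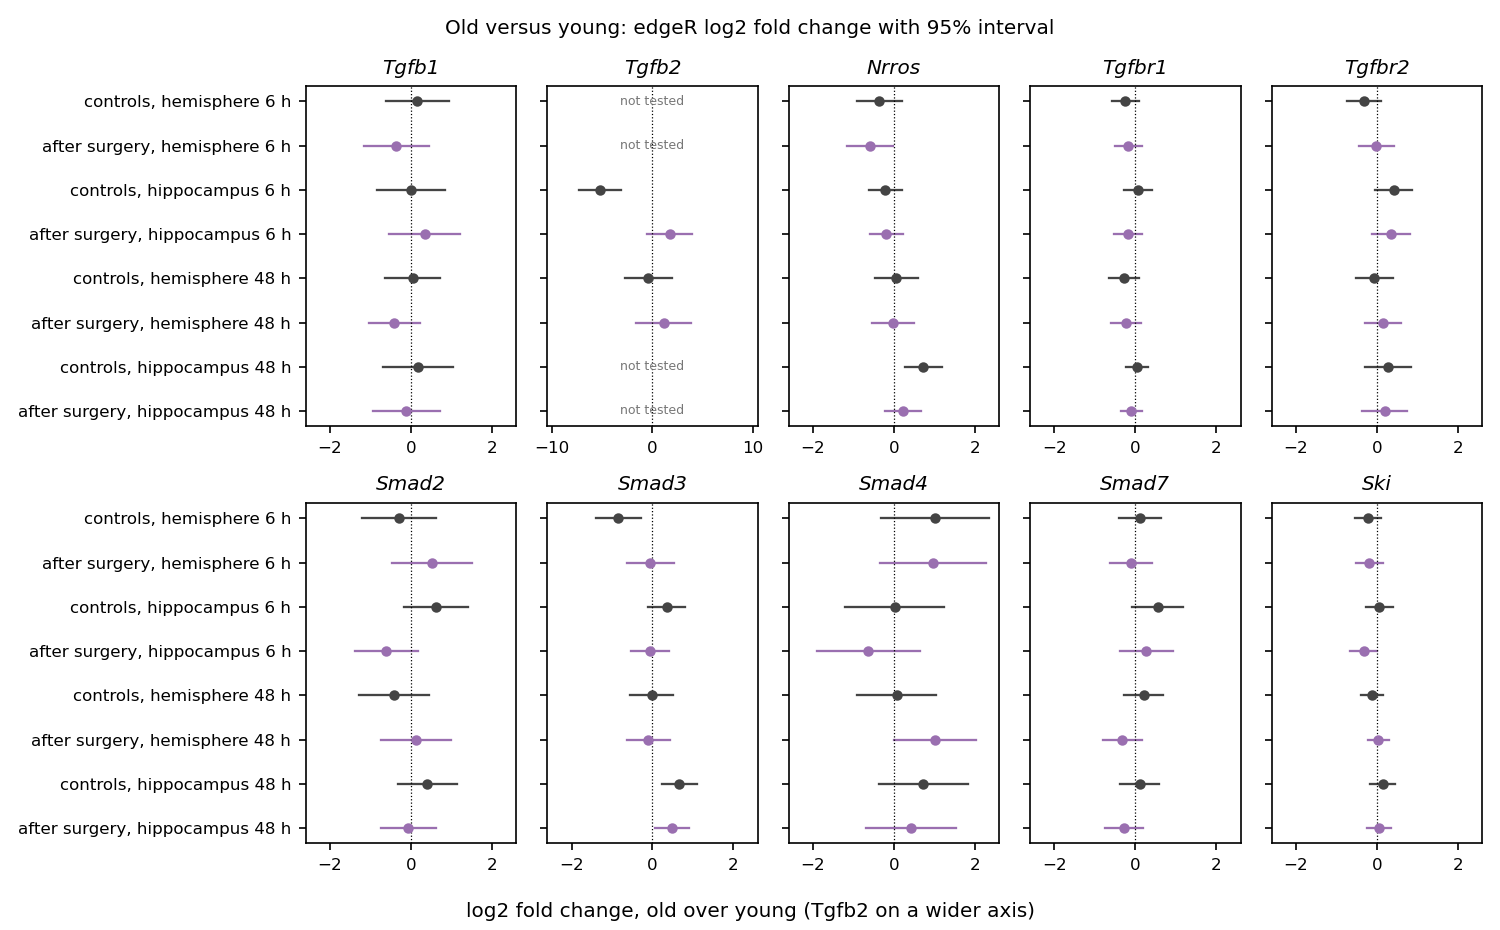
Log2 fold change of old over young with its 95% interval from edgeR, among controls (grey) and after surgery (purple), for each region and time. The interval of Tgfb2 in control hippocampus at 6 h runs from -7.30 to -3.17, and those of Smad3 lie below 0 in control hemisphere at 6 h and above 0 in hippocampus at 48 h, with Nrros (-0.59 and 0.73) and Smad4 (1.02) holding the other 3 that exclude 0.

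Nrros in control hippocampus at 48 h read 30.9, 41.9, 46.2 and 58.6 CPM in young animals and ran from 52.8 CPM upward in old ones with a median of 64.6 (0.73 ± 0.23 SE, BH 0.324). The highest young animal lay within the old range, and 5 of 8 old animals were above it. The choroid plexus and microglial marker sums of these groups are given with Smad3 above. In hemisphere at 6 h after surgery the value of Nrros was -0.59 ± 0.27 SE (BH 0.828), where 1 young library stood at 123 CPM and the other 3 at 47 to 50.5 CPM. Among the animals sorted alongside the young ones it was -0.22. Smad4 in hemisphere gave 1.01 ± 0.65 SE (BH 0.795) in controls at 6 h, 0.97 ± 0.64 SE (BH 0.94) after surgery at 6 h and 1.02 ± 0.50 SE (BH 0.787) after surgery at 48 h, and none was called. Without Tgfb2, the age values within treatments ran from -0.84 to 1.02.

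Whether surgery acted differently in old and young animals was tested as a difference of the surgery effects (old minus young). None of these genes, and 0% of all genes, was called in the 4 tests by edgeR. At an unadjusted p under 0.05, 2 of 38 tests passed (5.26%), beside 5.93% of all tests. Those 2 were Tgfb2 in hippocampus at 6 h (6.95 ± 1.52 SE, BH 0.208, DESeq2 BH 0.0329), which draws on the same young control libraries as above, and Smad2 there (-1.24 ± 0.54 SE, BH 0.514). Tgfb2 in hemisphere at 48 h gave 1.52 ± 1.75 SE (BH 0.966), and the other genes lay between -1.24 and 0.95. Smad2 read 4.03, 4.97, 6.15 and 9.38 CPM in young controls and 5.07, 7.43, 8.80 and 17.4 CPM after surgery. In old animals its medians were 9.59 and 6.44 CPM. For Smad7 at 48 h the difference was -0.52 ± 0.34 SE in hemisphere and -0.39 ± 0.33 SE in hippocampus (BH 0.961 and 0.924), so the lower values of old animals after surgery were not shown to differ from those of young ones.

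Within each region and age, the effect of surgery at 6 h was subtracted from that at 48 h. None of these genes was called, beside 0.00707% of all genes in young hemisphere, 0.17% in old hemisphere and 0% in young and in old hippocampus. At an unadjusted p under 0.05, 3 of 40 tests passed (7.5%), beside 6.73% of all tests. In old hippocampus Smad3 gave 0.69 ± 0.24 SE (BH 0.481) and Smad2 0.89 ± 0.42 SE (BH 0.692), both higher at 48 h relative to 6 h. Tgfb2 gave 5.72 ± 1.85 SE in young hippocampus (BH 0.443), which draws on the young control libraries of 6 h, and -2.80 ± 1.44 SE in old hippocampus (BH 0.726). The other genes lay between -0.85 and 0.89 over the 4 tests. Smad7 gave -0.54 ± 0.28 SE (BH 0.689) in old hemisphere and -0.36 ± 0.31 SE (BH 0.814) in old hippocampus.

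Hippocampus and hemisphere came from the same animals and were compared with the animal as a block. None of the 10 genes was called in any of these tests. The share of all genes called was 0.276% on average over the 8 groups, 0.00627% in young controls, 0.0627% in old controls and 0% in young and old animals after surgery. At an unadjusted p under 0.05, 12 of 60 tests of the genes passed (20%), beside 6.31% of all tests. The 6 comparisons share animals. Of the 12 that passed, 4 come from the regional difference in old minus young animals, which was chosen after the age values were seen.

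Smad3 was lower in the hippocampus of all 8 young controls, with log2 differences from -1.21 to -0.25 (-0.66 ± 0.21 SE, BH 0.553), and of 6 of 8 young animals after surgery (-0.35 ± 0.21 SE, BH 1.0). In old controls it was higher in the hippocampus of 10 of 16 animals (0.30 ± 0.15 SE, BH 0.596), and in old animals after surgery it was also higher in 10 of 16 but averaged -0.08 ± 0.15 SE (BH 1.0). The regional difference was 0.62 ± 0.18 SE higher in old than in young animals (BH 0.607; 0% of all genes called), a test chosen after the age values of each region were seen. That interval runs from 0.25 to 0.98, and the value ran from 0.52 to 0.83 over the alternatives tried.

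Tgfbr2 was lower in the hippocampus of 11 of 16 young animals, with a value of -0.49 ± 0.19 SE in young controls (BH 0.641) that was -0.19 without the stepped libraries. In old controls it was 0.07 ± 0.13 SE. Tgfbr1 was higher in the hippocampus of 12 of 16 old controls (0.21 ± 0.09 SE, BH 0.503) and of 2 of 8 young controls (-0.13 ± 0.12 SE). Nrros was higher in 11 of 16 old controls (0.27 ± 0.14 SE) and in 2 of 8 young controls (-0.20 ± 0.20 SE). Tgfb2 was higher in the hippocampus of 2 of 16 old controls, lower in 10 and at the same CPM in 4 (-2.28 ± 0.89 SE, BH 0.494). In young animals it was higher in the hippocampus of 6 of 8 controls (1.26 ± 1.19 SE, BH 0.846) and 6 of 8 after surgery (0.94, interval from -1.28 to 3.15, BH 1.0). Its regional difference was -2.24 ± 1.00 SE in old minus young animals (BH 0.662). Smad2 was -0.65 ± 0.30 SE in young controls (BH 0.674), and Smad4 ran from -0.52 in old animals after surgery to 0.44 in old controls. On average over the 8 groups the 95% intervals were narrow for Tgfbr1 (-0.08 to 0.14), Ski (-0.16 to 0.04) and Nrros (-0.21 to 0.15).

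**Figure D5:**
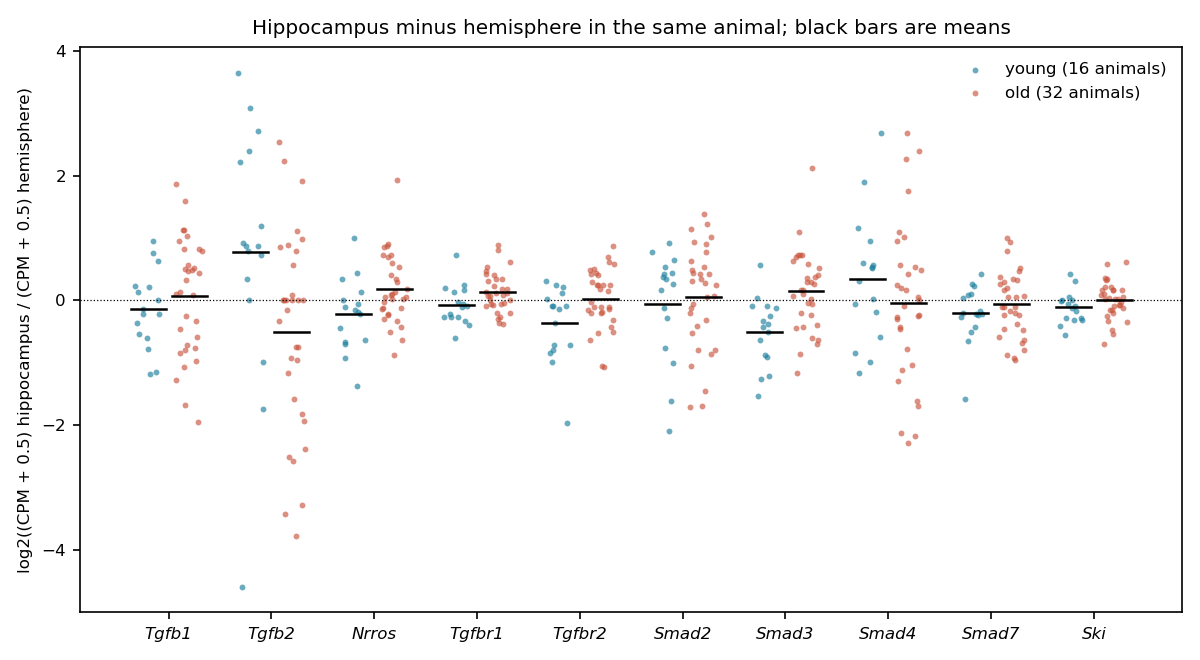
Log2 ratio of hippocampus to hemisphere in each animal, with 0.5 CPM added to both, for 16 young (blue) and 32 old (red) animals, with black bars at the means. For Smad3, 14 of 16 young animals lie below 0 and 20 of 32 old animals above it, and Tgfb2 and Smad4 scatter most.

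Of the rest of the pathway, 5 lists were followed: 20 other ligand, latency and activation genes, 11 other receptors, 24 other SMADs and SMAD regulators, 20 target genes known from many cell types, and 20 microglial genes that depend on TGF-beta. Skil, Pmepa1, Tgif1 and Ltbp2 stand in more than 1 list. After surgery, none of the 552 tests of listed genes was called in edgeR, 52 passed at an unadjusted p under 0.05 (9.42%, beside 6.04% of all tests), and list medians ran from -0.43 to 0.35. The microglial genes had medians from -0.32 to 0.15 in these comparisons. The lowest was in old hippocampus at 6 h, beside 0.02 for all genes, where 1 of the 20 had a positive value. There 9 of 20 passed at an unadjusted p under 0.05, beside 8.28% of all genes. The other receptors had a median of -0.43 there, with 4 of 8 tested genes at that level. The surgery effect in old minus young hippocampus at 6 h was positive for 0 of the 20 microglial genes. At an unadjusted p under 0.05, 0 of 20 passed, beside 9.29% of all genes. The share of all genes with a positive value was not computed. Genes of a list were measured in the same libraries, so these counts are not of independent results.

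With age, the listed genes that were called were mostly the microglial genes, and in hemisphere. On the average over treatment and time there, 6 of the 20 fell and 1 rose, beside 1.66% of all genes called, and 12 of 20 passed at an unadjusted p under 0.05, beside 10.2% of all genes. The list's median was -0.23 beside 0.02 for all genes. The summed level of the 8 microglial markers also had lower medians in old hemisphere. At 6 h they were 5098.3 (old) and 6287.2 CPM (young) in controls, and 4891.7 and 5904.4 CPM after surgery. At 48 h they were 6178.8 and 8237.1 CPM in controls, and 6920.3 and 7565.6 CPM after surgery. In hippocampus the medians went either way. Whether the fall is particular to genes that depend on TGF-beta was not tested. P2ry12, the purinergic receptor by which resting microglia sense nucleotides, fell from 565 ± 126 to 430 ± 112 CPM (-0.42 ± 0.08 SE, BH 0.000947). Gpr34, a lipid-sensing receptor, fell from 204 ± 50.8 to 150 ± 48.3 CPM (-0.48 ± 0.11 SE, BH 0.00643), and Fcrls, the surface protein used in the sort, from 414 ± 78.9 to 318 ± 89.9 CPM (-0.39 ± 0.10 SE, BH 0.0325). Sparc, Cx3cr1 and Siglech fell by 0.27, 0.31 and 0.24 on the log2 scale. Of 24 alternatives, P2ry12 was called in 23, Gpr34 in 22, Sparc in 21, Fcrls in 13, Siglech in 10 and Cx3cr1 in 9. Of the target genes of many cell types, Cdkn1a, a cell cycle inhibitor, rose from 14.7 ± 3.61 to 21.2 ± 7.6 CPM (0.48 ± 0.12 SE, BH 0.0277), a call made in 12 of 24 alternatives. The count of falling microglial genes was 4 without the stepped libraries, 1 among animals sorted alongside the young ones (P2ry12) and 0 with the replicate number as a block.

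Upk1b, a uroplakin gene on the same list, rose with age in both regions. In hemisphere it averaged 18.5 ± 6.74 CPM in young and 33.5 ± 12 CPM in old libraries (0.81 ± 0.15 SE, BH 0.00055), and in hippocampus 18.3 ± 6.97 and 52.2 ± 17.7 CPM (1.46 ± 0.15 SE, BH 1.95e-09). Both calls held under each of 24 alternatives. Within treatments it was called in hippocampus among controls at 6 h (1.83 ± 0.30 SE, BH 0.0099) and 48 h (1.66 ± 0.28 SE, BH 0.00432) and after surgery at 48 h (1.35 ± 0.27 SE, BH 0.0417). The 6 h call was kept in 28 of 31 alternatives and lost without the stepped libraries, with the replicate block and without young control replicate 1. The 48 h call among controls was kept in 30 of 32, and that after surgery in 17 of 32. These counts include refits that left out libraries of the other treatment, which are not part of the comparison. Both 48 h calls were lost among animals sorted alongside the young ones and with the replicate block. In hippocampus the other microglial gene called was Gas6, a ligand of the receptor Mertk, which rose from 30.9 ± 9.75 to 43.3 ± 11.7 CPM (0.47 ± 0.12 SE, BH 0.0453; called in 9 of 24 alternatives), while the list's median was 0.02 beside 0.00 for all genes. Rhob, a small GTPase among the target genes, fell from 95.5 ± 26.1 to 69.5 ± 18.6 CPM there (-0.45 ± 0.11 SE, BH 0.0307; called in 13 of 24 alternatives). The age effects of the regions were compared directly. P2ry12 (0.37 ± 0.12 SE, BH 0.61), Gpr34 (0.49 ± 0.17 SE, BH 0.622), Fcrls (0.40 ± 0.14 SE, BH 0.622) and Upk1b (0.68 ± 0.19 SE, BH 0.607) had higher values in hippocampus relative to hemisphere in old than in young animals, but none was called.

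Between regions on average, 2 microglial genes were called, both higher in hippocampus. They were Sparc (0.20 ± 0.04 SE, BH 0.00406), a secreted matrix protein, and Crybb1 (0.25 ± 0.06 SE, BH 0.035; called in 9 of 24 alternatives), and 19 of the 20 genes had a positive value. By group, the value was positive for 4 of 20 in young controls (median -0.17), 13 of 20 in young animals after surgery, 20 of 20 in old controls and 18 of 20 in old animals after surgery. These counts too come from genes measured in the same libraries. In old controls Fcrls (0.53 ± 0.11 SE, BH 0.0351), Sparc (0.32 ± 0.06 SE, BH 0.00668) and Upk1b (0.82 ± 0.15 SE, BH 0.00312) were called higher in hippocampus, and none of the 3 among the animals sorted alongside the young ones. The list's median there was 0.33, beside -0.01 for all genes.

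Genes with the most similar pattern were sought over the 16 group means of log2 CPM, among up to 1732 well measured genes, as a description of these groups. Tgfbr1 was most like Mertk, the receptor of Gas6 (Pearson r = 0.92), and Slco2b1 (0.91). Tgfbr2 was most like Bscl2 (0.94) and Mbnl1 (0.84), and Smad3 like Tmcc3 (0.89) and Bscl2 (0.87). Smad7 was most like Ccnl1 (0.91) and Kdm6b (0.90), Nrros like Tmx4 (0.84) and Ptafr (0.81), Ski like Ang (0.86) and Cerk (0.86), and Smad2 like Ganab (0.85) and Rab1a (0.83). Smad4 reached 0.75 with Snrpb and 0.68 with Rpl38, and Tgfb1 0.72 with Wdfy2 and Tmem135. The group means share libraries and animals, and the best of many candidates is high by selection.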

How the data were processed

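Microglia of 96 libraries were measured by Smart-seq2, a full-length protocol, per the series' design text. The deposited values are expected (estimated) counts per Ensembl gene in whole numbers, with 1 column per library, per the file headers. Build mm10 and the tools R (4.2.1) and DESeq2 (1.36.0) are listed in the submitters' processing notes. For aligner, counter and strand setting, the sources used here name nothing. Whole-number steps were absent at low values in 6 libraries, so the design written for raw counts was kept for estimated counts, used as deposited. The 2 libraries of an animal share a sort number in the labels.

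Groups were compared by the quasi-likelihood test of edgeR (version 4.0.16 under R 4.3.3), using TMM, robust dispersions, filterByExpr at a minimum count of 10, and Benjamini-Hochberg adjustment over all genes tested. A gene under 0.05 is called. Each region and time was fitted as 4 groups, age averages and time differences over the 8 groups of a region, and regions over all libraries with the animal as a block. Fold changes are log2 with SE and 95% intervals, and CPM values are TMM-normalized with SD. Exon lengths, symbols and coordinates came from GENCODE's mouse annotation on mm10. The scripts were tested on simulated data.

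Groups share replicate numbers, and at 6 h replicates 1 to 4 carry consecutive sort numbers across the 4 groups. No source says that a number marks a litter, batch or day, and the numbers were not taken as pairs. Nothing states separate cultures or litters, so p-values measure the spread between these animals.

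The members and lists were chosen with earlier results of these data known. The naming rule covers all 10 genes in every comparison, given singly or by a range, and at most 4 called genes a pathway list by size of change. Sparc, Cx3cr1 and Siglech of hemisphere were named beyond that rule, after their values were seen. For likeness, 2 genes per member were named by Pearson r among genes of at least 4 log2 CPM. Alternatives were DESeq2 (1.42.0), limma voom (limma 3.58.1), RLE size factors, no count filter, removal of the 15 largest models, removal of stepped libraries, old animals sorted alongside the young, the replicate block and leaving out single libraries. For age averages and time differences only young libraries were left out, and for regional tests only young animals.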

Additional observations from a re-analysis of the deposited data

Results flagged for a closer look

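In 18 of 160 groups tested, 1 library stood apart from the rest of its group by Dixon's criterion at the 95% level. Chance flags about 1 group in 20. Of Tgfb2 the highest libraries were old control hemisphere 6 h replicate 4 (10.6 CPM, next 2.92), young control hemisphere 48 h replicate 3 (11.6 CPM, next 0.338), young surgery hemisphere 48 h replicate 1 (2.66 CPM, next 0.401), old surgery hippocampus 6 h replicate 3 (8.17 CPM, next 1.61) and old control hippocampus 48 h replicate 4 (3.97 CPM, next 1.53). Their counts were 29, 25, 8, 27 and 11.

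Of Smad4 they were old control hemisphere 6 h replicate 7 (27.3 CPM, next 5.10, stepped), old control hemisphere 48 h replicate 7 (15.2 CPM, next 6.86), old surgery hippocampus 6 h replicate 4 (14.4 CPM, next 5.45), young surgery hippocampus 6 h replicate 3 (18.7 CPM, next 5.23) and old control hippocampus 48 h replicate 7 (21.6 CPM, next 10.8). The 2 old control libraries of 48 h come from 1 animal.

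Nrros stood high in young surgery hemisphere 6 h replicate 3 (123 CPM, next 50.5) and young surgery hippocampus 48 h replicate 1 (80.2 CPM, next 42.3). Smad7 was high in young control hemisphere 48 h replicate 4 (22.0 CPM, next 12.5) and low in young control hippocampus 48 h replicate 3 (9.38 CPM, next 15.2). Tgfb1 was high in young control hippocampus 6 h replicate 1 (19.1 CPM, next 8.67, stepped). Low libraries were Smad3 in old control hemisphere 48 h replicate 6 (7.0 CPM, next 25.3), Smad2 in old control hippocampus 48 h replicate 3 (4.28 CPM, next 9.65) and Tgfbr2 in young surgery hemisphere 6 h replicate 4 (67.0 CPM, next 101).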

How the results depend on the processing

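The number of these genes called was computed again in 646 refits of the 32 comparisons, and 628 gave the same number. Only 1 of the 32 comparisons had a call, so this mostly means that 0 stayed 0. In old against young controls of hippocampus at 6 h, the 1 call (Tgfb2) became 0 with limma voom, without stepped libraries, among animals sorted alongside the young ones and with the replicate block. As each control library was left out in turn, the call was kept only without young replicate 3. DESeq2 gave 1 where edgeR gave 0 for surgery in old hippocampus at 6 h (Smad3), for the difference of surgery effects in hippocampus at 6 h (Tgfb2) and for age in hippocampus on average (Smad3). Of 35 single results with an unadjusted p under 0.05, none changed direction in 698 refits. They were picked by that p from the same libraries that the refits use, so a reversal was unlikely from the start. The replicate block changed no other call of these genes. The cause of these differences was not tested. The 6 falling microglial genes of old hemisphere were 2 with no count filter, 4 without stepped libraries, 1 among animals sorted alongside the young ones and 0 with the block. They were 3 without young control 6 h replicate 2, young control 48 h replicate 3, or young surgery 48 h replicate 2, 3 or 4, and at most 7. Calls over all genes and comparisons summed to 587, against 1314 with DESeq2, 503 with limma voom, 1011 with no count filter, 147 among animals sorted alongside the young ones (fewer animals), and 286 beside 532 with the replicate block. Age calls on average went from 235 and 140 to 66 and 43 among the animals sorted alongside. Libraries of the same replicate number in other groups of a table correlated above 0.1 in 44 of 110 pairs (median 0.0609), those of other numbers in 195 of 722 (median -0.0105), and the regions of an animal in 22 of 48 (median 0.085). Tgfb2 had 0 counts in 30 libraries and 1 or 2 in 38, which limits its tests.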
